A study of Homo sapiens with 40 samples.

Results

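The 4 genes described here are 3 copies of the U3 small nucleolar RNA, SNORD3A, SNORD3B-1 and SNORD3C, and the single gene of SNORD13, also called U13. They were picked by gene name among 57939 genes of a total RNA table, with their levels in these libraries already known, so those levels are given as a description without a test. The cells were H1, an established line of human embryonic stem cells, wild type in every group. Total RNA had been sequenced in 36 libraries, 2 for each of 18 groups that combine 3 days with 6 fractions. Day 0 cells were undifferentiated, and day 3 and day 5 cells had received 10 ng/mL BMP4 for the first day and 2.5 ng/mL bFGF afterwards to form mesoderm. The fractions were INPUT, taken here as RNA of whole cells, and 5 extracts obtained one after the other with the buffers of a protein fractionation kit: CE for cytoplasm, ME for membranes, SNE for the soluble nucleus, CBNE for what 300 units of micrococcal nuclease release from chromatin, and PE for the last pellet. Another table held polyA RNA of day 0 cytoplasm and nucleus, 2 libraries each. Nothing in the labels says that replicates were separate cultures, so the spread between them may be technical.

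Box C/D small nucleolar RNAs (snoRNAs) are short RNAs of the nucleolus that pair with ribosomal RNA, most of them to guide methylation by the enzyme fibrillarin. U3 does not guide methylation. It pairs with the precursor of 18S ribosomal RNA and is the core of the small subunit processome, the particle in which that precursor is folded and cut. SNORD13 guides the acetyltransferase NAT10 to a cytidine of 18S ribosomal RNA. Both are transcribed from promoters of their own, unlike most human snoRNAs, which are cut from introns.

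The RNA bodies of the 3 U3 copies are printed because their likeness decides how far reads can be told apart. All come from GENCODE 29 on GRCh38, run 5′ to 3′ over 217 bases and are in lower case, with the positions in capitals at which these copies differ. SNORD3A has both such positions in capitals, and the other copies have in capitals the base at which they depart from SNORD3A.
SNORD3A: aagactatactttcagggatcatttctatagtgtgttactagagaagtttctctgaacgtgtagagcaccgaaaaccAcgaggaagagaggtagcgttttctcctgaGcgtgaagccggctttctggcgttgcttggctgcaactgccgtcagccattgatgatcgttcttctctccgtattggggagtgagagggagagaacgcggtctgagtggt
SNORD3B-1: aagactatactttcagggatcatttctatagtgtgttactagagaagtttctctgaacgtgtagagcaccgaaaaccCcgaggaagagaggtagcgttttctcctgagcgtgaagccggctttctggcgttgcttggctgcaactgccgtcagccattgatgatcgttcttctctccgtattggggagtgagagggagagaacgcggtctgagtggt
SNORD3C: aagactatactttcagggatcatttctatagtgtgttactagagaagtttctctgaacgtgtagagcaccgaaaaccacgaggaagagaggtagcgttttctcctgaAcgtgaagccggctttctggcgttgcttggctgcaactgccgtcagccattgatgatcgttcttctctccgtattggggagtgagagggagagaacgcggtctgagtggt

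Counted from 1 at the 5′ end, SNORD3B-1 differed from SNORD3A by A78C and SNORD3C by G108A. SNORD3A and SNORD3B-1 thus shared a run of 139 identical bases, and SNORD3A and SNORD3C one of 109. A read inside such a run fits both copies, so the split of U3 reads among copies is uncertain and was made by the authors' processing. The body of SNORD3A lies at chr17:19188016-19188232 on the plus strand, that of SNORD3B-1 at chr17:19061912-19062128 on the plus strand and that of SNORD3C at chr17:19190029-19190245 on the minus strand. GENCODE extends the gene models past the bodies, to 699 bases for SNORD3A, 758 for SNORD3B-1 and 581 for SNORD3C, and no other gene overlaps them. SNORD3A and SNORD3C lie 951 bases apart on opposite strands. A further copy, SNORD3B-2, lies 677 bases from SNORD3B-1, and its body is identical to that of SNORD3B-1. SNORD3D, with 3 differences from SNORD3A, was listed at 0 in all 36 libraries. SNORD13 is a single transcript of 104 bases at chr8:33513475-33513578 on the plus strand. It lies within exon 1, in untranslated sequence, of the transcript TTI2-202, whose gene runs on the minus strand. Whether reads were counted by strand is not given in the sources used here. TTI2 itself stood between 3.41 and 9.81 TPM in the INPUT, CE, ME and SNE libraries.

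Values are in TPM (reads divided by gene length and scaled to a fixed library total), so each is a share of its library and not an amount per cell. A lower number of cells and less RNA per cell cannot be told apart in such values. Depth was read from the smallest steps of the values. In the 24 INPUT, CE, ME and SNE libraries 1 read on 1 kb was worth 0.707 to 1.81 TPM, and these are called deep below. In the 12 CBNE and PE libraries it was worth 3.37 to 61.8 TPM. In INPUT, mRNA of the pluripotency factor POU5F1 averaged 80.9 TPM on day 0 and 36.2 on day 5, and that of the mesoderm factor HAND1 0.740 and 787 TPM. The mRNAs of TBXT and MESP1 also rose, from 0.911 to 66.3 TPM and from 0.617 to 45.9. Those of GATA4 and PDGFRA reached only 0.891 and 3.27 TPM on day 5. KRT7 rose from 8.18 to 264 TPM and GABRP from 1.57 to 112. The identity of the day 5 cells was not tested. The mRNA of SOX2, a further pluripotency factor, was listed at 0 in every library, so a listed 0 is not proof of absence here. Library numbers in the titles jump within day 5, between the ME replicates, and the SNE, CBNE and PE libraries of day 5 all carry the later numbers.

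SNORD3A was by far the most abundant of the 3 copies in every library, and its level was nearly flat outside CBNE and PE. In INPUT it stood at 1890 and 1751 TPM on day 0, at 1840 and 1679 on day 3, and at 1822 and 1873 on day 5. The ranges of the 3 days overlapped, so whole cells showed no difference between days beyond the spread of replicates. CE libraries held 1819 and 1772 TPM on day 0, 1445 and 1287 on day 3, and 1519 and 1464 on day 5. The CE values of days 3 and 5 lay below all INPUT values. ME libraries held 1596 and 1551 TPM on day 0, 1672 and 1843 on day 3, and 1766 and 2202 on day 5. SNE libraries held 1772 and 1820 TPM on day 0, 1989 and 1658 on day 3, and 1816 and 2098 on day 5. Over these 24 libraries the level ran from 1287 to 2202 TPM with a coefficient of variation of 11.8%. Soluble nuclear and cytoplasmic extracts overlapped on day 0, and on days 3 and 5 both SNE libraries lay above both CE libraries.

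CBNE and PE libraries lay far above this range. On day 0, CBNE held 118672 and 127952 TPM of SNORD3A and PE held 83564 and 93803. On day 3, CBNE held 50771 and 40873 TPM and PE held 19557 and 23818. On day 5, CBNE held 211991 and 183838 TPM and PE held 16053 and 10320. No range of these 6 groups overlapped another, and the lowest of the 12 libraries was above the highest of the 24 deep ones. From the top, their order was day 5 CBNE, day 0 CBNE, day 0 PE, day 3 CBNE, day 3 PE and day 5 PE. The mean of SNORD3A in CBNE divided by the INPUT mean of the same day gave 67.7 for day 0, 26.0 for day 3 and 107 for day 5. In PE the ratios were 48.7, 12.3 and 7.14. In the libraries compared, 1 read on 1 kb was worth 13.8 to 61.8 TPM in CBNE, 3.37 to 30.8 in PE and 0.765 to 1.16 in INPUT. The part of this depth in the ratios was not tested, nor that of the nuclease step of CBNE, after which PE was taken. Whether duplicate reads were removed is not given in the sources used here. SNORD3A ranked first among all genes in both CBNE libraries of days 0 and 5 and in both PE libraries of day 0, and ranked between 22 and 129 in the deep libraries.

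**Figure D1:**
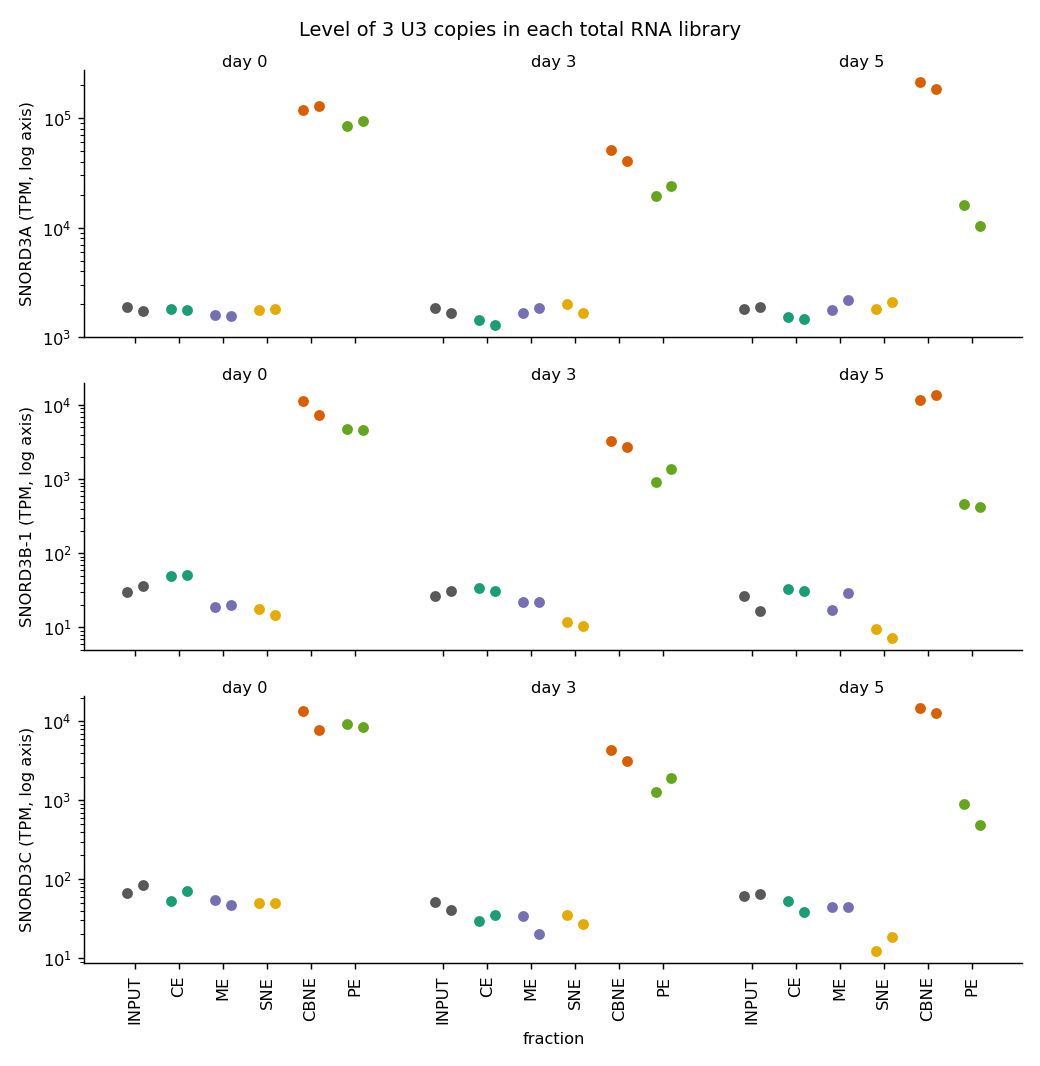
TPM of SNORD3A, SNORD3B-1 and SNORD3C on log axes, with 1 point for each of the 36 total RNA libraries, by fraction and day. SNORD3A sits between 1287 and 2202 TPM in INPUT, CE, ME and SNE and between 10320 and 211991 TPM in CBNE and PE; the lower panels show the same gap for the other copies.

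Read numbers worked out at a fixed length did not move with these levels. Taking the 217-base body as the length, which gives the lowest possible number, SNORD3A had 642 to 770 reads in the 12 CBNE and PE libraries, while its TPM differed 20.5-fold among them. The value of 1 read on 1 kb differed 18.4-fold over the same libraries. In CBNE it was 33.7 to 39.3 TPM on day 0, 13.8 to 16.8 on day 3 and 51.8 to 61.8 on day 5, the order of the SNORD3A levels. In PE it was 25.4 to 30.8 TPM on day 0, 6.60 to 7.25 on day 3 and 3.37 to 5.37 on day 5, again in the order of the levels. The part of depth in the differences between days, between CBNE and PE, and between these extracts and the deep libraries was not tested. In the deep libraries the same length gives 220 to 510 reads. Reads on the longer gene model would raise these numbers, so read numbers of the deep and the shallow libraries were not ranked.

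**Figure D2:**
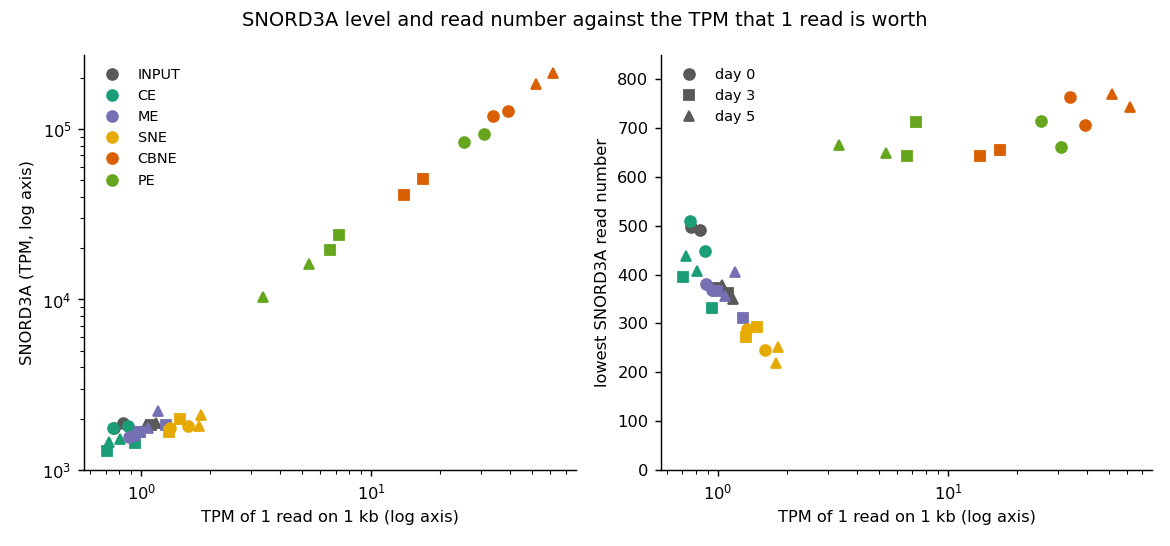
SNORD3A TPM (left, log axis) and its lowest read number (right) against the TPM that 1 read on 1 kb is worth (log axis), 1 point per library, coloured by fraction and shaped by day. In the 12 CBNE and PE libraries the TPM climbs along the axis from 10320 to 211991, while the read number stays between 642 and 770.

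SNORD3B-1 and SNORD3C followed the same division at lower levels. SNORD3B-1 stood at 11304 and 7420 TPM in CBNE on day 0, at 3262 and 2734 on day 3 and at 11586 and 13666 on day 5. Its PE libraries held 4829 and 4675 TPM on day 0, 924 and 1388 on day 3 and 467 and 422 on day 5. CBNE lay above PE on each day without overlap, and days 0 and 5 did not overlap in CBNE but were close. In the 24 deep libraries SNORD3B-1 ran from 7.18 to 51.7 TPM with a median of 24.2. The ratios of CBNE to INPUT, in the order of the days, were 283, 105 and 586, each larger than that of SNORD3A. These ratios rest on INPUT levels of 16.9 to 36.3 TPM, where 1 read on 1 kb is worth 0.765 to 1.16 TPM.

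SNORD3C stood at 13587 and 7853 TPM in CBNE on day 0, at 4342 and 3115 on day 3 and at 14796 and 12926 on day 5. In PE it stood at 9231 and 8591 TPM on day 0, at 1262 and 1898 on day 3 and at 887 and 487 on day 5. On day 0 the CBNE and PE libraries of SNORD3C overlapped, as did the CBNE libraries of days 0 and 5. In the deep libraries it ran from 12.3 to 84.3 TPM with a median of 46.0. Its CBNE to INPUT ratios were 141, 81.3 and 221. SNORD3B-2, the copy whose body equals that of SNORD3B-1, had ratios of 60.0, 20.1 and 92.9, close to those of SNORD3A.

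The copies were not split evenly. SNORD3B-1 and SNORD3C together made up 1.18% to 6.44% of the summed TPM of the 3 copies in the deep libraries, and 7.78% to 17.3% in the CBNE and PE libraries. The classes of library did not overlap in this share. Within the deep libraries the share was lowest in SNE, at 1.18% and 1.22% on day 5, and its highest values lay in INPUT and CE of day 0. These groups ran from 4.90% to 6.44%, and CE of day 5, at 5.35% and 4.53%, overlapped them. The mean of SNORD3B-1 in CE was 3.10 times that in SNE on day 0, 2.91 times on day 3 and 3.83 times on day 5, without overlap. SNORD3C gave 1.23, 1.03 and 2.95, with overlap on day 3, and SNORD3A gave 1.00, 0.749 and 0.762. These ratios and the low shares in SNE rest on few reads. With the body as the length, the lowest read number of SNORD3B-1 was 0.859 to 2.86 in SNE libraries and 7.73 to 14.9 in CE libraries. That of SNORD3C was 1.49 and 2.24 in SNE on day 5. The part of counting error and of the division of shared reads in these differences was not tested. SNORD3B-2 stood 2.40 to 7.67 times above SNORD3B-1 in the deep libraries, and 0.648 to 1.18 times in CBNE and PE. The bodies of these copies are identical, and how reads that fit both were divided is not given in the sources used here.

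**Figure D3:**
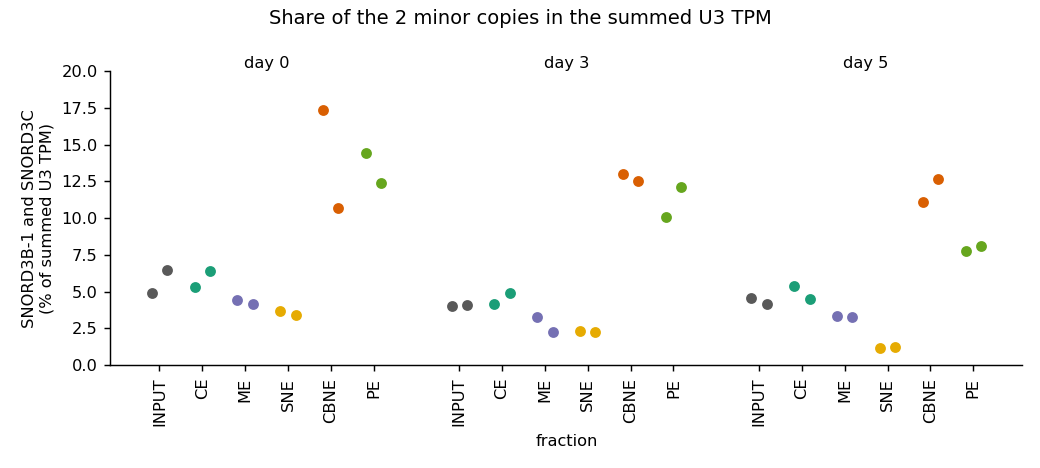
SNORD3B-1 and SNORD3C as a percentage of the summed TPM of SNORD3A, SNORD3B-1 and SNORD3C, 1 point per library by fraction and day. The CBNE and PE libraries lie at 7.78% to 17.3%, above the 1.18% to 6.44% of all INPUT, CE, ME and SNE libraries.

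Summed over the 3 copies, U3 took 0.137% to 0.228% of a deep library. In CBNE it took 14.5% and 14.4% of the TPM on day 0, 5.86% and 4.69% on day 3, and 23.9% and 21.1% on day 5. On the log2(TPM + 1) scale, the U3 sum in CBNE exceeded the mean of the other 4 extracts of its day by 4.86, 3.99 and 6.19 on days 0, 3 and 5. Because TPM values of a library add up to a fixed total, a share of this size lowers every other gene there. Together with SNORD3B-2, the U3 copies made up 99.5% to 99.7% of the TPM of all snoRNA genes in CBNE, and 46.0% to 91.8% in the deep libraries. Few other snoRNAs were seen at all: of 942 snoRNA genes listed, 861 were at 0 in every library. SNORD118, the annotated gene of U8, SNORD14A to SNORD14E, SNORD22 (U22), SNORA73A and SNORA73B, which also act in cleavage of the ribosomal RNA precursor, were all listed at 0 in all 36 libraries. So were 5 other abundant structured RNAs, RN7SK, RN7SL1, RN7SL2, RMRP and RPPH1. Of 17 further genes named only U8, 7 were above 0 in some library. ENSG00000212581 averaged 174, 72.9 and 169 TPM in SNE on days 0, 3 and 5, and ENSG00000238840 reached 389 TPM in 1 CBNE library of day 5. The other U8 genes stayed at or below 50.7 TPM. Of 52 genes named U3 or SNORD3, 43 were at 0 throughout, and the 5 others beyond the named copies stayed at or below 78.6 TPM.

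SNORD13 stood at a much lower level than SNORD3A. It was listed above 0 in 25 of 36 libraries, in 23 of the 24 deep ones and in 2 PE libraries, and at 0 in all 6 CBNE libraries. Its highest level was 225 TPM. Since it has 1 transcript, its values could be turned into read numbers, which came out whole in every library to within 0.01 of a read. The largest was 31 reads, so counting error is wide.

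In INPUT, SNORD13 stood at 121 and 169 TPM on day 0, at 74.2 and 94.2 on day 3 and at 50.2 and 55.9 on day 5. The ranges of the 3 days did not overlap. They correspond to 38 reads on day 0 (exact Poisson 95% interval 26.9 to 52.2), 17 on day 3 (9.90 to 27.2) and 10 on day 5 (4.80 to 18.4), summed over 2 libraries and covering counting error only. The value of 1 read on SNORD13 was 7.36 to 8.03 TPM in day 0 INPUT and 10.0 to 11.2 in day 5 INPUT. On the log2(TPM + 1) scale, INPUT of day 5 was below that of day 0 by a difference of -1.41, and that of day 3 by -0.77.

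Among CE, ME and SNE, CE had the highest mean of SNORD13 on each day. The level of 3 reads on SNORD13 was 20.4 to 27.2 TPM in CE, 25.5 to 37.1 in ME and 38.1 to 52.4 in SNE. Some ME and SNE libraries held 3 reads or fewer, so the comparison with them is weak. CE libraries held 177 and 225 TPM on day 0, 63.5 and 136 on day 3, and 93.2 and 83.9 on day 5. ME libraries held 72.2 and 25.5 TPM on day 0, 85.7 and 24.8 on day 3, and 51.6 and 79.4 on day 5. SNE libraries held 141 and 46.3 TPM on day 0, 99.2 and 12.7 on day 3, and 0 and 52.4 on day 5. On days 0 and 5 both CE libraries lay above every INPUT, ME and SNE library of their day, and on day 3 the fractions overlapped. Replicates of ME and SNE lay far apart, with 8 and 3 reads in ME and 11 and 3 in SNE on day 0, and 9 and 2 in ME and 7 and 1 in SNE on day 3. On day 5 the reads were 5 and 7 in ME and 0 and 3 in SNE.

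The 0 of SNORD13 in CBNE carries little information. There 1 read would be worth 133 to 595 TPM and 3 reads, the upper limit for a count of 0 in 1 library at a one-sided level of 95%, 399 to 1784 TPM. Every one of these limits is above the 225 TPM of the highest library, so SNORD13 at its CE level was not detectable at this depth. The same holds for the 2 PE libraries of day 0, where 3 reads equal 733 and 889 TPM. In PE of days 3 and 5, 2 reads in 1 of the 2 libraries gave 127 and 64.8 TPM, beside 0 in the other. Divided by the INPUT mean of the day, the PE means gave 0.754 on day 3 and 0.610 on day 5, with single libraries from 0 to 1.71 and from 0 to 1.29. In these PE libraries 3 reads equal 190.5 and 209 TPM on day 3 and 155 and 97.2 TPM on day 5, above the values seen. The ratios are therefore uncertain, and their upper ends set no limit on the level. No ratio was formed for CBNE or for PE of day 0.

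**Figure D4:**
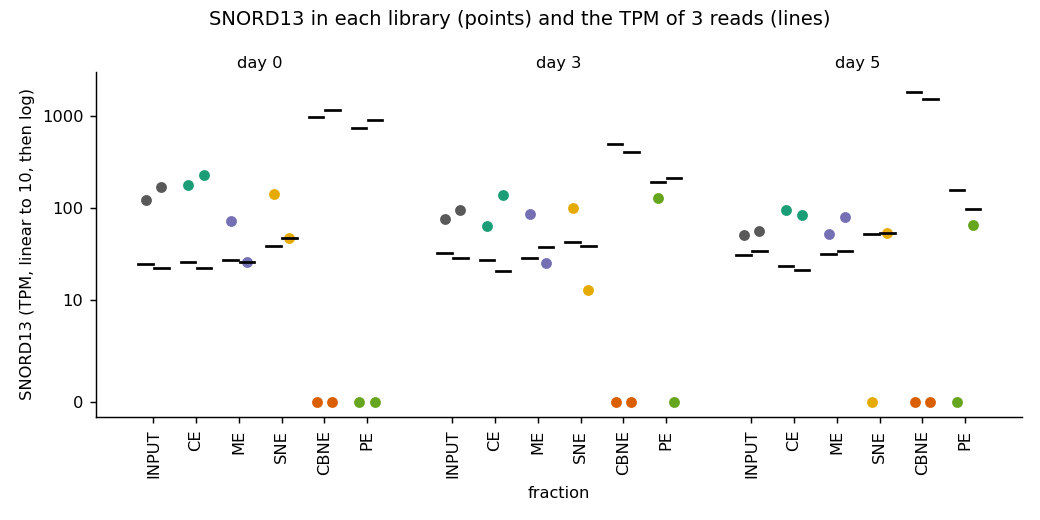
SNORD13 TPM in each library (points, axis linear to 10 and logarithmic above), by fraction and day, with a black line at the TPM that 3 reads are worth in that library. In CBNE all 6 points are at 0 and the lines lie between 399 and 1784 TPM, above the highest point of the plot at 225 TPM.

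The genes whose pattern was most like these were sought by Pearson's r over the 18 group means of log2(TPM + 1). The 13037 genes compared averaged at least 5 TPM over the 36 libraries. The closest genes are given as a description, since all points share the depth of their library. For the U3 sum they were the lncRNAs BX255925.1 (r = 0.986), AL162741.1 (0.983) and AC073530.1 (0.973), the copy SNORD3B-2 (0.977) and AC005258.1 (0.973), annotated as protein coding. BX255925.1, for example, stood at a mean of 1.07 TPM in day 0 INPUT and 177 TPM in day 0 CBNE. AC005258.1 and AC073530.1 stood at 0.451 and 0.348 TPM in day 0 INPUT and at 16.2 and 31.6 in day 0 CBNE. There 1 read on 1 kb was worth 33.7 to 39.3 TPM. Genes below 5 TPM in the deep libraries could pass the filter only through CBNE and PE, which favours a pattern like that of U3. For SNORD13 they were the mRNAs ATP5MC1 (0.971), CD9 (0.971), TMEM59 (0.958), ACTRT3 (0.955) and MRPL16 (0.954), of which ATP5MC1 encodes a subunit of the mitochondrial ATP synthase and CD9 a tetraspanin of the cell surface. The r for SNORD13 includes CBNE of each day and PE of day 0, where its 0 carries little information. It therefore partly reflects low values in these shallow libraries, where ACTRT3 was at 0 too.

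In polyA RNA, a separate table that can be tested, only SNORD3A of the 4 genes passed the filter of 1 TPM in at least 2 libraries. It stood at 7.96 and 5.95 TPM in cytoplasm and at 5.61 and 4.91 TPM in nucleus, which correspond to 23, 18, 11 and 10 reads on its 699 exonic bases. The cytoplasmic values lay above the nuclear ones by a narrow margin. The log2 difference of nucleus minus cytoplasm was -0.34 ± 0.16 (SE, n = 2 each), which was not called (limma, adjusted p = 0.105), where 30.0% of all genes were called higher in the nucleus and 6.22% lower. After quantile normalisation the difference was -1.07 and was called lower (limma, adjusted p = 0.00238). At a common median it was -0.89 (limma, adjusted p = 0.00509), past the limit on p but short of the log2 fold change of 1 in size that a call needs. The same held without the second cytoplasmic library, at -0.52 (limma, adjusted p = 0.0389), and without the first nuclear one, at -0.42 (limma, adjusted p = 0.0464). SNORD3C had 1 read in 1 cytoplasmic library, at 0.416 TPM, and SNORD3B-1 and SNORD13 were listed at 0 in all 4. In those libraries 3 reads on SNORD13 would equal 6.67 to 10.3 TPM.

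The proteins that work with U3 and SNORD13 were followed through their mRNAs, which the choice of the snoRNAs did not use. Of 61 genes in 4 lists, 59 were tested on log2(TPM + 1) in one limma model over the 36 libraries, and were called where the adjusted p was under 0.05 and the log2 fold change at least 1 in size. In CE, against the other 4 extracts, 32 were called higher and 0 lower on day 0 by limma, where 18.8% of all genes were called higher and 8.55% lower. At an unadjusted p under 0.05, 44 lay higher there and 3 lower, and the share of all genes at that limit was not worked out. On day 3 the counts were 18 and 1 (10.4% and 19.7% of all genes), and on day 5 they were 20 and 2 (12.5% and 17.6%). The median log2 differences of the lists together were 1.12, 0.33 and 0.64, beside 0, -0.28 and -0.22 for all genes. Set against ME and SNE only, without the shallow extracts, the counts were 22 higher and 2 lower on day 0 (11.6% and 13.9% of all genes), 11 and 2 on day 3 (7.00% and 14.9%), and 13 and 3 on day 5 (7.68% and 20.2%). Quantile normalisation gave 21 and 2 on day 0 (13.9% and 12.7%). With libraries set to a common median the counts were 28 and 0 on day 0 (16.0% and 11.8%), 28 and 0 on day 3 (19.0% and 8.04%), and 27 and 1 on day 5 (17.9% and 11.0%).

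Among the 5 core proteins of the U3 particle, the methyltransferase fibrillarin (FBL) was the clearest in CE. Its mRNA held 267 and 239 TPM in CE on day 0, 170 and 179 in INPUT and 22.3 and 18.9 in SNE. In CE it was higher by 3.73 ± 0.26 (SE; limma, adjusted p = 2.6332e-10) on day 0, by 3.19 on day 3 and by 2.86 on day 5. SNU13, which binds the kink-turn of box C/D RNAs, was higher in CE by 2.33, 1.90 and 1.63, and all 3 were called. RRP9, the protein particular to U3, was called higher on days 0 and 5, by 1.22 and 2.37, and gave 0.87 on day 3. NOP58, a scaffold protein of box C/D particles, was not called in CE on any day, with values of -0.54, -0.61 and -0.68. NOP56, its partner, was not called in CE either, at 0.05, 0.04 and 0.86. NAT10 was called higher in CE on day 0 only, by 1.28, against 0.04 and -0.06 on days 3 and 5; the difference between days was not tested.

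Of the 37 other processome mRNAs tested, 21 were called higher in CE and 0 lower on day 0. On day 3 the counts were 10 and 1, and on day 5 they were 10 and 2. Over all genes, 18.8%, 10.4% and 12.5% were called higher on these days and 8.55%, 19.7% and 17.6% lower. UTP3 was higher by 3.04, 2.20 and 2.38 on the successive days, and IMP3, which with IMP4 joins U3 to the precursor, by 2.33, 1.53 and 2.18. IMP4 itself was higher by 2.23, 1.79 and 1.82. UTP15 was higher on days 0 and 3, by 2.44 and 1.16, and gave 0.63 on day 5, which was not called. Of the 16 factors that assemble or export box C/D particles, 7, 6 and 7 were called higher in CE by limma. On each day 0 of them were called lower, beside the shares of all genes given above. At an unadjusted p under 0.05, 0, 3 and 4 of them lay below 0, and the share of all genes at that limit was not worked out. NCBP2, a subunit of the nuclear cap-binding complex, was higher by 2.61, 1.94 and 1.75, ZNHIT3, an assembly factor, by 2.26, 1.29 and 1.77, and SSB, the La protein, by 2.15, 1.36 and 1.27.

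**Figure D5:**
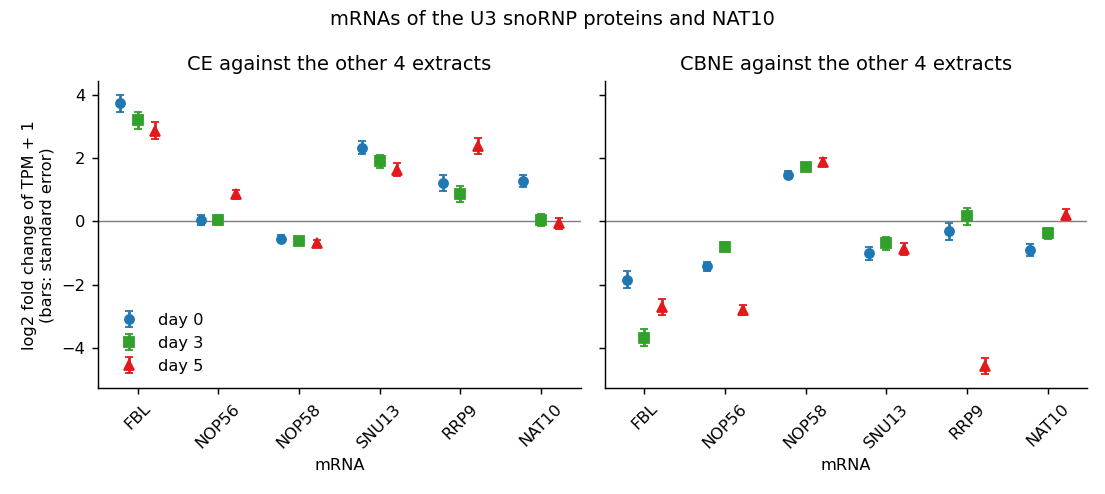
Log2 fold change of TPM + 1 with standard error for the mRNAs of the 5 U3 core proteins and NAT10, in CE (left) and CBNE (right) against the other 4 extracts of the same day, by day. FBL lies at 2.86 to 3.73 in CE and below 0 in CBNE, NOP58 at -0.68 to -0.54 in CE and 1.48 to 1.89 in CBNE; the lowest point, RRP9 on day 5, comes from libraries in which it was listed at 0.

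In CBNE, where the U3 RNAs stood highest, more of these mRNAs were called lower than higher. On day 0, 9 were called higher and 25 lower (12.0% and 24.9% of all genes), on day 3, 10 and 21 (19.7% and 19.4%), and on day 5, 6 and 35 (11.4% and 32.5%). With libraries set to a common median the counts became 14 and 11 (26.5% and 12.2%), 11 and 20 (25.2% and 15.6%), and 18 and 13 (44.8% and 10.9%), so the balance on days 0 and 5 turned with the scaling. The median log2 differences were -0.70, -0.55 and -1.56, beside -0.34, -0.11 and -0.53 for all genes. With genes at 0 in both CBNE libraries set at 3 reads over the 2 libraries together, the medians of the lists were -0.68, -0.49 and -1.24. Of the genes called lower, 2 on day 0, 1 on day 3 and 4 on day 5 were listed at 0 in both CBNE libraries, where a lower level cannot be told from too few reads. The median level of the listed mRNAs in CBNE was 17.4, 19.5 and 12.6 TPM, beside 33.7 to 39.3, 13.8 to 16.8 and 51.8 to 61.8 TPM for 1 read on 1 kb, and the part of this depth in the calls was not tested. FBL stood at 11.3 and 9.87 TPM in CBNE on day 0 and was called lower by -1.84. DCAF13, a processome protein, was called lower on each day, by -3.82, -3.81 and -3.52, as was WDR75, by -3.56, -2.98 and -4.66. Of the 5 core protein mRNAs, 3, 1 and 3 were called lower in CBNE on days 0, 3 and 5. NOP58 alone among them was called higher. It held 204 and 239 TPM in CBNE on day 0 beside 157 and 158 in SNE and 71.9 and 71.1 in CE, and was called higher in CBNE by 1.48 on day 0, 1.72 on day 3 and 1.89 on day 5. NOP56 was called lower in CBNE on days 0 and 5, by -1.42 and -2.80, and gave -0.80 on day 3, which was not called. PHAX, the export adaptor of capped small RNAs, was also called higher in CBNE, by 2.08, 1.81 and 1.26.

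Between days in INPUT, 0 of the 59 mRNAs were called on day 3 against day 0 by limma (4.06% of all genes were called higher and 3.38% lower), with 0 above and 7 below 0 at an unadjusted p under 0.05. On day 5 against day 0, 0 lay above and 22 below 0 at an unadjusted p under 0.05. The share of all genes at that unadjusted limit was not worked out for either day. By limma, 0 were called higher on day 5 against day 0 and 2 lower (6.15% and 6.67% of all genes). They were NOP56, at 456 and 426 TPM on day 0 and 217 and 209 on day 5 (log2 difference -1.05 ± 0.19 SE; limma, adjusted p = 0.000235), and NOL11, a processome protein (-1.03; limma, adjusted p = 0.000906). Neither was called after quantile normalisation or with libraries set to a common median. In polyA RNA, 5 of 58 were called higher in the nucleus and 6 lower, beside 30.0% and 6.22% of all genes. NOP56 was higher there by 1.92, whereas FBL and SNU13 were lower, at -1.28 and -1.60.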

How the data were processed

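The deposited tables hold TPM values per gene, a unit read from the values: columns of the total RNA table summed to between 989513 and 998559 and those of the polyA table to 1000000. The submitters' processing notes name the genome build hg38, the aligner HISAT2 2.0.5, the counter featureCounts 1.6.2, the quantifier Salmon 1.3.0 and the toolkit GATK; which of them made which table, whether duplicates were removed and how reads shared by U3 copies were divided are not given in the sources used here. Libraries were grouped by their titles. The members, the gene lists and the comparisons were chosen with earlier results of these data known.

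The value of 1 read was taken as the commonest TPM times length among genes with 1 transcript in GENCODE 29, and a read may be a read pair. For TTI2, SNORD13 and the U3 copies, positions and sequences are those of GENCODE 29. Genes that reached 1 TPM in 2 or more libraries (24735 in total RNA, 16667 in polyA RNA) were fitted with limma 3.58.1 in R 4.3.3 on log2(TPM + 1), with a mean per group, a trended robust prior and Benjamini-Hochberg adjustment over all genes; residual degrees of freedom were 18 and 2. The fit was tested on simulated data. Such fold changes understate those of low genes. Errors marked SE are standard errors of the fit. Of the protein lists, the text names every U3 core protein, NAT10 and, from each other list, genes among the 3 called with the largest absolute change in a contrast. DIEXF was not matched in the table and EMG1 did not pass the filter. The contrast of SNORD13 in CBNE was given no value because all 6 libraries are below its detection limit; its difference between days in INPUT was added after seeing the data. Alternatives were other pseudocounts, filters, scalings, a replicate block and each library left out.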

Additional observations from a re-analysis of the deposited data

How the results depend on the processing

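The U3 sum in CBNE stayed above the mean of the other 4 extracts of its day under each of the alternatives run. Its log2 difference, 4.86, 3.99 and 6.19 on days 0, 3 and 5, became 4.46, 3.56 and 5.87 with totals made without mitochondrial-encoded genes, 4.74, 3.71 and 6.44 when structured RNA genes were left out of the totals too, and 5.63, 4.29 and 7.68 with libraries set to a common median. SNORD3A alone gave 4.74 on day 0. Against CE, ME and SNE only, chosen after seeing the data, it was 6.31, 4.95 and 6.92. Leaving out single libraries gave 4.84 to 4.87, 3.83 to 4.15 and 6.10 to 6.28. The SNORD13 difference in INPUT ran from -1.01 to -0.52 on day 3 and from -1.66 to -1.17 on day 5 when single libraries were left out. The difference of SNORD3A in polyA RNA, -0.34, was called after quantile normalisation only (-1.07), passed the limit on adjusted p but not on size at a common median (-0.89), and ran from -0.52 to -0.15 with single libraries left out.

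Counts of pathway mRNAs moved by more than 1.5 times as follows. Quantile normalisation gave 21 higher and 2 lower in CE on day 0, 1 lower in CE on day 5 and 0 lower in INPUT on day 5. A common median gave 28 higher and 0 lower in CE on day 3, 1 lower in CE on day 5, 14 higher and 11 lower in CBNE on day 0, 18 and 13 on day 5, and 0 lower in INPUT on day 5. A pseudocount of 0.1 gave 2 lower in CE on day 3. Against the deep extracts only, CE had 2 lower on day 0, 11 higher and 2 lower on day 3, and 13 higher on day 5. With single libraries left out, counts higher and lower in CE ran from 30 to 33 and 0 to 0 on day 0, 15 to 19 and 1 to 2 on day 3, and 19 to 21 and 2 to 2 on day 5. In CBNE they ran from 6 to 10 and 24 to 29 on day 0, 9 to 10 and 20 to 22 on day 3, and 5 to 7 and 31 to 39 on day 5. In INPUT they ran from 0 to 1 and 2 to 2 on day 5. The causes were not tested. A replicate block for the shared replicate numbers left every pathway count as it was, and gave SNORD3A in polyA RNA -0.34 (limma, adjusted p = 0.0682). Deviations of same-numbered libraries correlated between -0.04 and 0.07, which gave no sign of pairing. Noise between libraries could hide it, so this check cannot exclude that same-numbered libraries shared cells. Depth limits SNORD13 in CBNE, and there 2, 1 and 4 of the 59 pathway mRNAs were at 0 in both libraries on days 0, 3 and 5.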
